A study of Canis lupus familiaris with 22 samples.

Results

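S100 proteins are small calcium-binding proteins that act inside cells and, after release, as signals to other cells. Their transcripts were followed here in the blood of dogs with canine atopic dermatitis (cAD). The 10 genes listed were S100A8, S100A9, S100A12, S100A4, S100A6, S100A10, S100A11, S100A1, S100A13 and S100P, and a gene was read from every transcript probe of the array that carried its symbol as gene name. On this rule 7 of the 10 genes had a probe, 8 probes of 43603 in all, while S100A10, S100A1 and S100P had none. S100A10 and S100P were named only in the description of other probes, whose values are given apart from the rest, and S100A1 was found in neither field.

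The study asked how allergen-specific immunotherapy (ASIT), in which the allergen itself is given over months, alters gene expression in blood. It compared 8 healthy dogs (ctrl) with 7 adult pets of several breeds that had cAD, each sampled at the start of ASIT (0) and again once it had run for 6 months (6 months), on 22 arrays. Each array was hybridized with the RNA of 1 dog in Cy5 and with the same reference RNA in Cy3, a pool from healthy dogs. The labels call the material whole blood, while the methods speak of peripheral blood nuclear cells. Every value below is the log2 of the ratio of dog to pool, so that 0 stands for the level of the pool and 1 for a doubling. In bulk blood, fewer cells of a type and less RNA per cell cannot be told apart.

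S100A8 and S100A9 pair as calprotectin, which neutrophils and monocytes hold in large amounts and release at sites of inflammation. With S100A12 they are called calgranulins, and released forms bind the receptors TLR4 and AGER on other cells. S100A4, S100A6, S100A10 and S100A11 are expressed in many cell types, where they bind annexins or the cytoskeleton, and S100A10 forms a complex with annexin A2. S100A13 takes part in the release of proteins that lack a signal peptide, and S100P is found in neutrophils and in placenta. In atopic skin of people, calgranulins are known to be produced by keratinocytes, but skin was not sampled here.

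The probes decide what can be told apart among such similar genes, so the sequences of those of the 3 calgranulins are shown, 5′ to 3′. Capitals mark a match to AACTTNNANGANTTC, the window of 15 bases in which the probes of the 3 genes shared most letters (11), picked from these sequences themselves.
S100A8: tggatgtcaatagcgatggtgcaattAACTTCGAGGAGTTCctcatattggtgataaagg
S100A9: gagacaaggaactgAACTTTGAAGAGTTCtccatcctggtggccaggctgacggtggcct
S100A9 second probe: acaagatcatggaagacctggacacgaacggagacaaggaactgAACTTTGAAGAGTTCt
S100A12: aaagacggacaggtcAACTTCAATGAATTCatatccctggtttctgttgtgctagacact
The pattern, searched on both strands, was found in 6 of all 43603 probes (0.0138%). No stretch longer than 6 bases was the same in a row between the S100A8 probe and the brighter S100A9 probe, between S100A8 and S100A12, or between that S100A9 probe and S100A12. The S100A9 probes overlapped each other by 30 bases and are not independent readings. On canFam3.1, the build of the files, the S100A8 probe lay at chr7:43541449-43541508 on the plus strand, the S100A12 probe at chr7:43555298-43555357 on the plus strand, and the S100A9 probes at chr7:43567198-43567257 and chr7:43567228-43567287 on the minus strand. The same stretch of chromosome 7 held the probes of S100A4 (chr7:43495951-43496010), S100A6 (chr7:43502524-43502912) and S100A13 (chr7:43441874-43441933), all on the plus strand. S100A11 lay at chr17:61020423-61020482 on the minus strand. The 60 bases of the S100A6 probe span 389 bases of the genome and so cross a gap, and the sequence is shown because further probes for this gene gave other values.
S100A6: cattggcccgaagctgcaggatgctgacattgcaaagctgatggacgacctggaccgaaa
No annotation of that build was used here to place the probes in exons.

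The 8 probes were well above background in both channels on all 22 arrays, none was saturated, and 0 of their spots had an outlier flag. The arrays themselves differed. The median share of all transcript probes with Cy5 well above background was 87.8% in ctrl, with a range of 83.7% to 92.3%. It was 62.5% before ASIT, with a range of 53.3% to 87.5%, and 61.6% after ASIT, with a range of 57.2% to 81.6%. All 8 control arrays were on slides 1 and 2, which held no array of a patient, and were scanned on a day of their own. In both comparisons with ctrl, slide or scan day and disease therefore cannot be told apart.

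The calgranulins did not separate cAD patients from healthy dogs. In every group the lowest and highest dogs lay on either side of the pool, except that S100A12 barely rose above it in ctrl. S100A8 ranged from -0.41 to 0.72 in ctrl (median 0.18, n = 8), from -0.26 to 0.87 before ASIT (median 0.05, n = 7) and from -0.14 to 0.75 after ASIT (median 0.22, n = 7). The 3 ranges overlapped almost whole. S100A9 ranged from -0.30 to 0.73 in ctrl (median -0.04), from -0.67 to 0.57 before ASIT (median -0.23) and from -0.23 to 0.44 after ASIT (median -0.07). Its lowest values, -0.67 in dog 6 and -0.50 in dog 7, were both from patients before ASIT, and these dogs stood at -0.23 and -0.16 after ASIT. S100A12 ranged from -0.52 to 0.02 in ctrl (median -0.08), from -0.69 to 0.74 before ASIT (median -0.39) and from -0.57 to 0.48 after ASIT (median -0.07). Control dogs were close together at this gene, with an SD of 0.19, against 0.52 before and 0.38 after ASIT. The median SD over all tested probes was also lower in ctrl, at 0.30 against 0.52 and 0.44, and over the probes that, like S100A12, were well above background in both channels on all arrays it was 0.31, 0.39 and 0.34. The differences in spread were not tested.

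**Figure D1:**
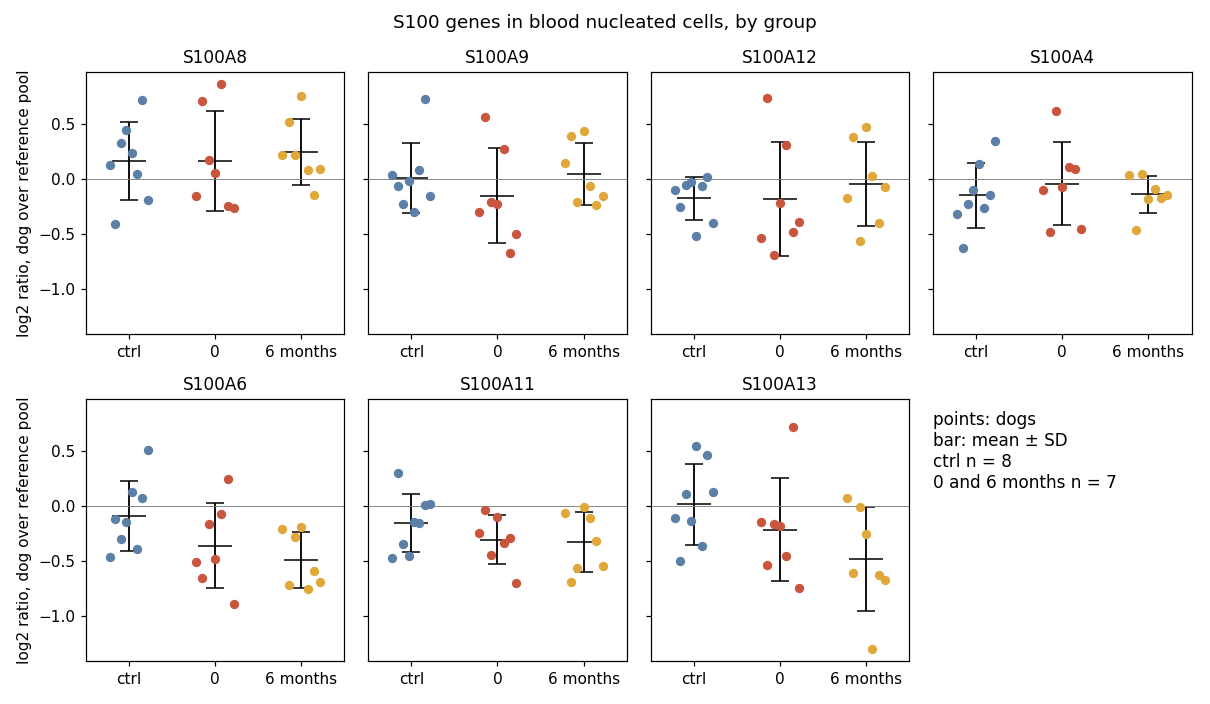
Log2 ratio of dog to reference pool (y axis) of 7 S100 genes by group (x axis). Here 0 and 6 months stand for patients at the start of ASIT and after 6 months of it. Each point is 1 dog and bars are the mean and SD; the groups overlap at every gene, and the widest gap between means, at S100A13, is that of 0.02 in ctrl and -0.48 after ASIT.

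For 0 vs. ctrl, the question was which transcripts mark untreated cAD. None of the 8 S100 probes was called by limma at an adjusted p under 0.05, over all 38287 tested probes, of which 0.0418% were called. At an unadjusted limma p under 0.05 the count was 0 of 8, where 11.7% of all probes passed. By the exact permutation test it was 0 of the 7 genes, where 12.5% of all probes passed. At all 8 probes the groups overlapped, and 0.219% of all probes had groups that did not. S100A8 differed by 0.0006 ± 0.20 (SE) on the log2 scale, with a 95% interval from -0.41 to 0.41 that leaves room for a change of up to 1.33-fold in either direction (limma adjusted p = 1.00, exact permutation p = 0.998, n = 7 and 8). S100A12 differed by -0.006 ± 0.20 (limma adjusted p = 0.996) and S100A9 by -0.16 ± 0.19 (limma adjusted p = 0.794). The difference of S100A9 was -0.06 without control dog 7, and -0.28 without dog 2 before ASIT. The sign of S100A8 and of S100A12 changed when single arrays were left out, so no direction is given for them. The second S100A9 probe differed by -0.15 ± 0.20, close to the first.

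The broadly expressed members gave no call either. S100A4, which binds non-muscle myosin, ranged from -0.63 to 0.35 in ctrl (median -0.19, n = 8), from -0.48 to 0.62 before ASIT (median -0.08, n = 7) and from -0.46 to 0.05 after ASIT (median -0.14, n = 7). The high value of 0.62 before ASIT came from dog 3 alone, which was at 0.05 after ASIT. S100A11, a partner of annexin A1, ranged from -0.47 to 0.30 in ctrl (median -0.15), from -0.70 to -0.03 before ASIT (median -0.29) and from -0.69 to -0.01 after ASIT (median -0.32). All 14 patient arrays were below the pool at this gene, as were 5 of the 8 control arrays. In 0 vs. ctrl, S100A4 differed by 0.11 ± 0.16 and S100A11 by -0.15 ± 0.15 (limma adjusted p = 0.850 and 0.754). Over the 7 genes the differences ran from -0.27 to 0.11 with a median of -0.15, where the median of all tested probes was -0.02.

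S100A6 and S100A13 had the most negative differences from ctrl among the 7 genes, at both times. S100A6, known to bind calcyclin-binding protein, ranged from -0.46 to 0.51 in ctrl (median -0.13, n = 8), from -0.89 to 0.25 before ASIT (median -0.48, n = 7) and from -0.76 to -0.19 after ASIT (median -0.59, n = 7). The 7 dogs after ASIT were all below the pool, and 4 of them, dogs 2, 5, 6 and 7, were below the lowest control dog. S100A13 ranged from -0.50 to 0.55 in ctrl (median 0.0042), from -0.75 to 0.72 before ASIT (median -0.18) and from -1.30 to 0.08 after ASIT (median -0.61). Dogs 2, 5, 6 and 7 after ASIT were again below every control dog, with dog 5 farthest at -1.30. In 0 vs. ctrl the differences were -0.27 ± 0.18 for S100A6 (limma adjusted p = 0.592, exact permutation p = 0.159) and -0.23 ± 0.22 for S100A13 (limma adjusted p = 0.747, exact permutation p = 0.295).

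In 6 months vs. ctrl, which set treated patients against healthy dogs, 0 of the 8 S100 probes were called by limma, as were 0% of all 38287 tested probes. At an unadjusted limma p under 0.05, 2 of 8 passed, where 7.2% of all probes did. S100A6 differed by -0.40 ± 0.18 (95% interval -0.77 to -0.04, limma unadjusted p = 0.0316, adjusted p = 0.681, exact permutation p = 0.0174). S100A13 differed by -0.50 ± 0.22 (95% interval -0.96 to -0.04, limma unadjusted p = 0.0345, adjusted p = 0.681, exact permutation p = 0.0364). These were the only exact tests under 0.05 among the 21 made on the 7 genes, and 10.5% of all probes passed the exact test in this comparison. The groups overlapped at all 8 probes, against 0.11% of all probes at which they did not. Neither result passed the adjustment over all probes. The exact permutation p of S100A13 reached up to 0.0809 when 1 array was left out, and was above 0.05 without control dog 3, 5, 7 or 8 or without the array of dog 2, 5, 6 or 7 after ASIT, while that of S100A6 stayed between 0.0117 and 0.0390. After normexp background correction with loess the exact permutation p of S100A13 was 0.347 and that of S100A6 0.0180. S100A13 was by far the dimmest of the 7 genes, with a mean log2 Cy5 signal of 8.89 in ctrl and 8.17 after ASIT. The other genes stood at 14.65 or above in every group. The part of dimness in the values of S100A13 was not tested.

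The further probes for S100A6 did not show the same gap. Their description, not their gene name, gives S100A6, and they lie within chr7:43503026-43503106, beyond the end of the probe shown above. They were brighter, with mean log2 Cy5 signals of 16.06 to 16.35 in ctrl, against 15.03 for the probe named S100A6. In 6 months vs. ctrl these 4 probes differed by -0.06, -0.09, -0.10 and -0.11, with SEs of 0.16 to 0.19, and exact permutation p-values from 0.447 to 0.609. They overlap each other and are not independent readings. Their means in ctrl were -0.39 to -0.23 and after ASIT -0.48 to -0.30, while the probe named S100A6 had -0.09 ± 0.32 (SD, n = 8) and -0.49 ± 0.25 (SD, n = 7). Before ASIT the means were -0.39 to -0.22 and -0.36. In 0 vs. ctrl the 4 probes differed by -0.04 to 0.02, and the probe named S100A6 by -0.27. Whether the probes differ beyond their spread was not tested.

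The calgranulins stood near their control level after ASIT. In 6 months vs. ctrl S100A8 differed by 0.09 ± 0.20, S100A9 by 0.04 ± 0.19 and S100A12 by 0.13 ± 0.20, with limma adjusted p-values of 0.937, 0.976 and 0.898. The 95% interval of S100A12, from -0.28 to 0.54, left room for a rise of up to 1.46-fold. All 3 differences turned negative after normexp background correction with loess, at -0.12, -0.15 and -0.06, and in the Cy5 channel alone. S100A4 differed by 0.01 ± 0.16 and S100A11 by -0.17 ± 0.15 (limma adjusted p = 0.992 and 0.789). Over the 3 groups together, limma's F-test called 0 of the 8 probes and 0% of all probes, with the lowest adjusted p among the 7 genes at S100A6 (0.585). At an unadjusted p under 0.05 it passed 0 of the 8 probes and 9.7% of all probes.

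**Figure D2:**
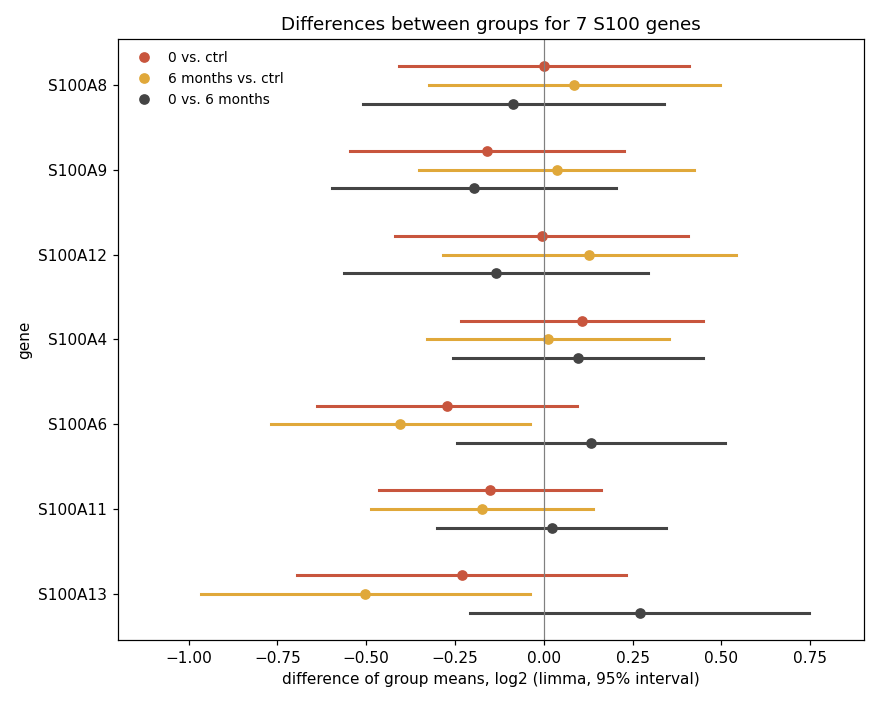
Difference of group means on the log2 scale (x axis) of 7 S100 genes (y axis) in the 3 comparisons, as points with 95% intervals from limma. Of the 21 intervals, those of S100A6 and S100A13 in 6 months vs. ctrl, from -0.77 to -0.04 and from -0.96 to -0.04, do not reach 0, and neither passed the adjustment over all probes.

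In 0 vs. 6 months the arrays of the same 7 patients were compared, and a positive difference means a higher value before ASIT. The limma and exact permutation tests did not pair the arrays of a dog, while the sign-flip test within dogs did. Again 0 of the 8 S100 probes were called by limma, as were 0% of all probes, and 0 of 8 passed an unadjusted limma p under 0.05 against 5.96% of all probes. By the exact permutation test 0 of the 7 genes passed, against 3.39% of all probes, and the groups overlapped at all 8 probes, against 0.0183% of all probes at which they did not. The 3 calgranulins were higher after ASIT in most dogs: S100A8 in 5, S100A9 in 4 and S100A12 in 5 of 7 dogs. The mean differences were -0.09 ± 0.20 for S100A8, -0.20 ± 0.19 for S100A9 and -0.13 ± 0.21 for S100A12 (limma adjusted p = 0.958, 0.934 and 0.936). Within dogs, the exact sign-flip permutation test gave p = 0.641, 0.250 and 0.344, and none of the 7 genes read by gene name passed 0.05, where 5.46% of all probes did. All 3 signs turned after normexp background correction with loess, to 0.20, 0.04 and 0.10, so the direction depends on background correction and normalization, which that setting changed together.

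Single dogs differed more than the group means. The arrays after ASIT of dogs 4 to 7 were all on slide 6, which held no array from before ASIT, so slide or scan day and time cannot be told apart in these 4 dogs. S100A8 of dog 4 went from 0.05 to 0.75, while that of dog 5 went from 0.87 to 0.09. The other calgranulins of these dogs went the same way, S100A9 from -0.23 to 0.44 in dog 4 and from 0.27 to -0.07 in dog 5, and S100A12 from -0.21 to 0.48 and from 0.31 to 0.03. Dogs 1 and 7 had higher values after ASIT for all 3 genes, by 0.32 to 0.44. Dog 2 was lower after ASIT for all 3 genes, by 0.17 to 0.36, but stayed above the pool at both times. Among the other members, S100A13 of dog 6 fell by 1.35, from 0.72 to -0.63, and that of dog 5 by 0.85, from -0.45 to -1.30. The same dogs had the largest decreases of S100A6, 0.83 in dog 6 and 0.69 in dog 5. Over all probes, the deviations of the 2 arrays from their group means correlated by only -0.04 in dog 6 and by 0.33 in dog 5, and in both the array from before ASIT correlated better with another dog's array after ASIT. Over all 7 dogs S100A6 and S100A13 differed by 0.13 ± 0.18 and 0.27 ± 0.23 (exact sign-flip permutation p = 0.484 and 0.438), and both signs turned in dogs 1 to 3, whose arrays shared a slide, to -0.04 and -0.10.

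**Figure D3:**
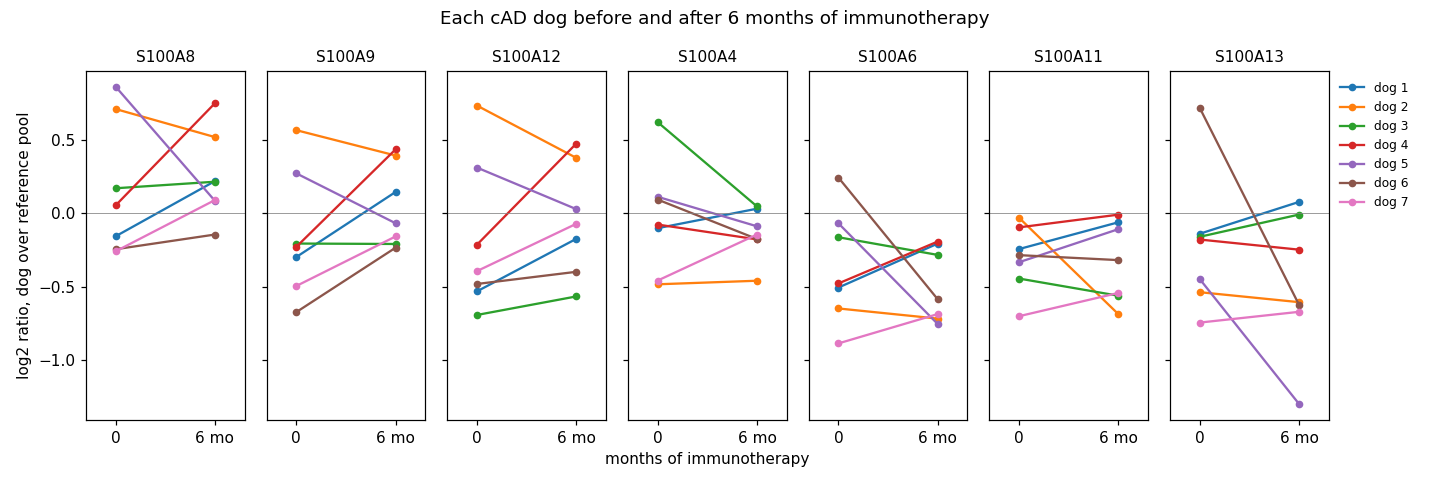
Log2 ratio of dog to reference pool (y axis) of 7 S100 genes in each of the 7 cAD patients. Samples are from the start of ASIT (0) and from 6 months into it (6 mo). Each line is 1 dog in the same colour in every panel; dog 4 rises and dog 5 falls at all 3 calgranulins, and dog 6 falls from 0.72 to -0.63 at S100A13.

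S100A8 and S100A9, the chains of calprotectin, varied together among the patients. They had Pearson's r = 0.93 before ASIT (exact permutation p = 0.00476, Spearman's rho = 0.93 with p = 0.00675, n = 7) and r = 0.90 after ASIT (exact permutation p = 0.00536, rho = 0.86 with p = 0.0238, n = 7). Both had an adjusted p of 0.0482 by Benjamini-Hochberg over the 18 relations computed, 6 pairs in 3 groups. Without the 2 dogs farthest from the median of S100A8, r was still 0.83 and 0.84. In ctrl r was 0.53 (exact permutation p = 0.189, rho = 0.21 with p = 0.619, n = 8) and -0.11 without the 2 farthest dogs. With 8 dogs this neither shows nor excludes such a relation, and a difference between patients and control dogs was not tested. The values before and after ASIT come from the same 7 dogs and are not independent. S100A12 followed S100A9 with r = 0.88 both before and after ASIT (exact permutation p = 0.0145 and 0.0137, adjusted p = 0.0652 each, rho = 0.54 with p = 0.236 and 0.86 with p = 0.0238, n = 7). Before ASIT that relation rested on the 2 farthest dogs, without which r was -0.07, and after ASIT it was 0.48. S100A8 and S100A12 had r = 0.83 before and 0.78 after ASIT (exact permutation p = 0.0371 and 0.0401, adjusted p = 0.106 each, rho = 0.46 with p = 0.302 and 0.57 with p = 0.200, n = 7). Without the 2 farthest dogs r was -0.21 and 0.51, so that before ASIT this relation too rested on those dogs. All values of an array share the pool and the normalization.

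Among the broadly expressed members, S100A4 and S100A6 had r = 0.73 in ctrl and 0.71 before ASIT (exact permutation p = 0.0411 and 0.0700, adjusted p = 0.106 and 0.158, rho = 0.71 with p = 0.0576 and 0.82 with p = 0.0341, n = 8 and 7). Without the 2 farthest dogs r was 0.86 and 0.91. The remaining relations among S100A4, S100A6 and S100A11 had r from -0.14 to 0.54 in the 3 groups. Same-dog values before and after ASIT were also compared for the 7 genes. The largest r was 0.70, at S100A12 (exact permutation p = 0.0808, adjusted p = 0.378 over 7 relations, rho = 0.86 with p = 0.0238, n = 7, r without the 2 farthest dogs 0.94). No gene passed the adjustment.

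The mean of the 3 calgranulins was also set against the mean of S100A4, S100A6 and S100A11 on each array, as a description without a test. S100A10 belonged in the second mean by its known expression, but had no probe under its name. The calgranulin mean minus the other mean ran from -0.54 to 0.51 in ctrl with a median of 0.30, from -0.49 to 1.06 before ASIT with a median of 0.09, and from 0.08 to 1.06 after ASIT with a median of 0.33. It was above 0 in 5 of 8 control dogs, in 4 of 7 patients before ASIT and in all 7 after ASIT, and the ranges overlapped. Dog 2 had the widest gap at both times, 1.06 before and 1.06 after ASIT, with calgranulins at 0.67 and 0.43 and the other members at -0.39 and -0.62. Dog 6 had the most negative value before ASIT, -0.49, and was at 0.10 after ASIT. With the S100A10 probe known by its description in the second mean, a setting chosen after seeing the data, the medians were 0.24 in ctrl, -0.08 before and 0.19 after ASIT, so that the one before ASIT changed sign. The difference was then above 0 in 5 of 8, 3 of 7 and 7 of 7 arrays, with the lowest value after ASIT at 0.03.

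**Figure D4:**
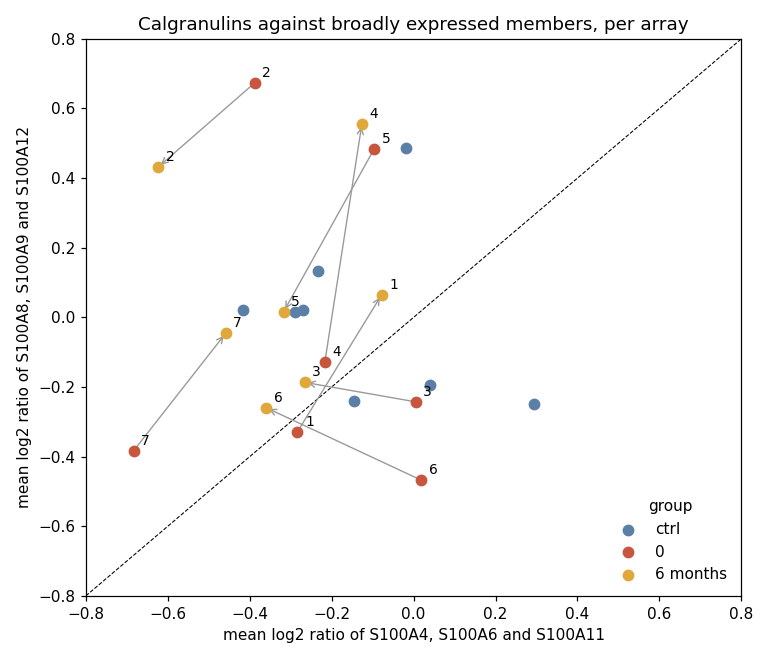
Mean log2 ratio of S100A8, S100A9 and S100A12 (y axis) against that of S100A4, S100A6 and S100A11 (x axis), 1 point per array. Arrows join the arrays of each cAD patient from before to after ASIT, numbered by dog, and the dashed line marks equal values; all 7 arrays after ASIT lie above it, as do 4 of 7 before ASIT and 5 of 8 in ctrl.

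S100P and S100A10 were read only from probes whose description names them. S100P had 2 such probes, at chr3:58807190-58807249 on the plus strand and chr3:58804923-58804982 on the minus strand, and which of them follows the strand of the gene was not settled here. The first ranged from -0.59 to 0.58 in ctrl (median -0.41, n = 8), from -0.42 to 0.19 before ASIT (median -0.09, n = 7) and from -0.12 to 0.43 after ASIT (median 0.07, n = 7). Of the control dogs 7 of 8 were below the pool, and of the patients after ASIT 6 of 7 were above it, but control dog 7 was the highest of all at 0.58. The second ranged from -0.67 to 0.52 in ctrl, from -0.25 to 0.45 before ASIT and from -0.22 to 0.91 after ASIT.

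Both S100P probes were higher after ASIT than before in 6 of 7 dogs. In 0 vs. 6 months they differed by -0.26 ± 0.17 and -0.32 ± 0.20 (exact sign-flip permutation p = 0.0469 and 0.0313, where the smallest p that 7 dogs can give is 0.0156 and 5.46% of all probes passed 0.05). By limma the adjusted p was 0.929 and 0.927. In 6 months vs. ctrl they differed by 0.39 ± 0.16 and 0.41 ± 0.19 (limma unadjusted p = 0.0239 and 0.0415, adjusted p = 0.681 for both, exact permutation p = 0.0337 and 0.0715). In 0 vs. ctrl the differences were 0.13 ± 0.16 and 0.09 ± 0.19 (limma adjusted p = 0.811 and 0.893). The S100A10 probe, at chr17:60984205-60984264 on the minus strand, was higher before ASIT in 6 of 7 dogs, with a difference of 0.15 ± 0.18 (exact sign-flip permutation p = 0.203). Against ctrl it differed by 0.10 ± 0.17 before and -0.05 ± 0.17 after ASIT (limma adjusted p = 0.867 and 0.962).

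A list of 9 other S100 genes and S100PBP, which encodes a binding protein of S100P and is no S100 gene, gave no call. Of these 10 genes 8 were on the array and tested, 7 of them S100 genes, and limma called 0 in each comparison. The largest differences were those of S100B, a glial and dendritic cell protein, at 0.68 ± 0.26 in 0 vs. ctrl (limma unadjusted p = 0.0143, adjusted p = 0.269), and of S100A16 at 0.64 ± 0.24 in 6 months vs. ctrl (unadjusted p = 0.0124, adjusted p = 0.680). Their Cy5 signals were well above background on 18 and 21 of the 22 arrays. S100A14 differed by 0.52 ± 0.47 and S100PBP by 0.45 ± 0.25 in 0 vs. 6 months (limma adjusted p = 0.934 and 0.905). S100A14, S100G and S100A5 were well above background in Cy5 on only 10, 11 and 12 of the 22 arrays. Over the 7 S100 genes the median difference was 0.07 in 0 vs. ctrl, the value of S100G, and 0.02 in 6 months vs. ctrl. With S100PBP it was 0.19 and -0.02, against -0.02 and -0.04 over all probes. At an unadjusted limma p under 0.05, 1 of the 8 passed in each comparison with ctrl, against 11.7% and 7.2% of all probes.

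Receptors and partners of S100 proteins were tested as a list of 21 genes, of which 20 were on the array and 19 were tested, with 0 called in each comparison. TLR4, the receptor of calprotectin, differed by 0.02 ± 0.19 in 0 vs. ctrl, by 0.04 ± 0.19 in 6 months vs. ctrl and by -0.02 ± 0.20 in 0 vs. 6 months. AGER, the receptor for advanced glycation end products, differed by -0.20 ± 0.20, -0.11 ± 0.20 and -0.09 ± 0.21. CD69, a lymphocyte activation antigen that binds S100A8 with S100A9, differed by 0.54 ± 0.25 in 0 vs. ctrl (unadjusted p = 0.0413, adjusted p = 0.395). CD68, a macrophage antigen, differed by 0.78 ± 0.36 in 6 months vs. ctrl (unadjusted p = 0.0401, adjusted p = 0.681). BSG, a receptor for S100A9, differed by 0.58 ± 0.41 in 6 months vs. ctrl and annexin A6 (ANXA6) by 0.56 ± 0.35 in 0 vs. 6 months (limma adjusted p = 0.727 and 0.929). In 0 vs. ctrl 10 of the 19 differences were positive, with a median of 0.02. In 6 months vs. ctrl 9 were, with a median of -0.004. At an unadjusted limma p under 0.05, 1 of the 19 passed in each comparison with ctrl, against 11.7% and 7.2% of all probes.

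The genes whose profile over the 22 arrays was most like the calgranulin mean were ranked by Pearson's r among 7706 named genes well above background on all arrays, as a description without p-values. FCGR1A, the high-affinity IgG receptor of monocytes and neutrophils, came first with r = 0.83, followed by TLR4 (0.80), GPR137B (0.78), NAMPT (0.77) and SDSL (0.76). FCGR1A had r = 0.77 in ctrl, 0.82 before and 0.96 after ASIT. TLR4 had 0.95, 0.72 and 0.88. For the mean of S100A4, S100A6 and S100A11 the first was CRIP1, a LIM-domain protein, with r = 0.86, followed by P4HB (0.84), PCBD1 (0.83), BCAP31 (0.83) and IRF3 (0.83). All points share the pool, and the 2 arrays of a patient share the dog.

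Blood cell markers were read beside these values. Of 13 neutrophil genes 9 were on the array, all well above background on all 22 arrays, and limma called 0 of them, with a median difference of 0.02 in 0 vs. ctrl and 0.08 in 6 months vs. ctrl. Their mean per array ran from -0.37 to 0.44 in ctrl, from -0.28 to 0.65 before ASIT and from -0.18 to 0.50 after ASIT. The dog with the highest neutrophil mean before ASIT was dog 2, at 0.65, which also had the highest calgranulin mean, and the highest after ASIT was dog 4, at 0.50, again with the highest calgranulin mean. In ctrl the highest was dog 2, at 0.44, whose calgranulin mean of -0.24 was among the lowest of its group. Dog 5 before ASIT, with calgranulins at 0.48, had a neutrophil mean of -0.18. The 8 monocyte genes ran from -0.44 to 0.32 in ctrl, from -1.05 to 0.37 before ASIT and from -0.71 to 0.69 after ASIT, and before ASIT stood at -0.44 in dog 2, at 0.35 in dog 5 and highest, at 0.37, in dog 6, which had the lowest calgranulin mean, -0.47. FCGR1A is 1 of these 8 genes. The part of cell numbers in the values of the calgranulins was not tested.

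The other lists had 0 genes called as well. All 5 erythroid genes on the array had positive differences from ctrl, with medians of 0.49 in 0 vs. ctrl and 0.93 in 6 months vs. ctrl, and all 4 platelet genes negative ones, with medians of -0.47 and -0.13. The 6 genes of neutrophil granule precursors had medians of 0.31 and 0.40, the 6 T cell genes 0.10 and -0.22, the 6 B cell genes 0.06 and -0.34, the 3 cytotoxic genes 0.10 and -0.19, and the 2 eosinophil genes 0.23 and 0.04.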

How the data were processed

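The authors deposited the Agilent scanner output of 22 arrays, with Cy5 and Cy3 intensity per spot, and a series matrix of log10 ratios. Their Feature Extraction software subtracted the background, normalized the channels and wrote the deposited log10 ratio of Cy5 to Cy3; the labels give version 10.7.3.1 and the file headers 10.10.1.1. The matrix equals the scanner ratios on all patient arrays, while on control arrays the sources correlated by 0.74 to 0.85.

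The ratios were put on the log2 scale. Control spots were dropped, as were 208 spots that carried outlier flags, and the mean over a probe's spots was used. Tested were the 38287 probes whose Cy5 signal was well above background on 7 or more arrays, in 1 limma fit of 3 groups (limma 3.58.1, R 4.3.3, data.table version 1.17.8) with Benjamini-Hochberg adjustment and a threshold of 0.05. Where several probes carried a gene's name, the brightest of them stood for it, so the brighter probes described as S100A6 were not used. Genes outside the 10 members came from lists of S100 relatives, receptors and cell markers, with up to 4 examples of the first 2 lists, and the 5 genes most like each mean; AGER was named besides for its role. The members were further tested by exact permutation (2-sided), with smallest p-values of 0.000155 (8 against 7) and 0.000583 (7 against 7). Members and lists were chosen with earlier results of these data known, and the probes named by description after the files were seen. The number of arrays limits the precision. Arrays were paired by the dog number of the source and health labels; the titles of all arrays after ASIT say patient 1 and then count from 1 to 7. Deviations of same-numbered arrays from the group means correlated by -0.04 (dog 6) to 0.56, and in 4 of 7 dogs the array before ASIT correlated best with that dog's own after ASIT. The fit was tested on simulated data with 200 of 38287 probes changed by 2 (log2) before ASIT. In 0 vs. ctrl it recovered 183 of them, with 11 false calls. The simulation had no effects of slide, scan day or dog. Changes as small as the differences of the S100 genes were not simulated. Alternatives were another background correction, the series matrix, ratios of processed signals, Cy5 alone, 2 filters, the one-way and Tukey tests of the methods, slide, scan day or dog as a block, dogs 1 to 3 alone and each array left out. Figures were drawn with matplotlib 3.10.9.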

Additional observations from a re-analysis of the deposited data

Results flagged for a closer look

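Each of the 7 genes was checked in each of the 3 groups for a single dog far from the rest, 21 checks in all, of which chance would mark about 1 in 20, and 2 were marked. S100A9 of control dog 7 was 0.73, far above the next control dog; the same dog had the highest S100A8 of its group, 0.72. Without this array, the difference of S100A9 in 0 vs. ctrl was -0.058. S100A13 of dog 6 before ASIT was 0.72, far above the next patient; without this array, the difference of S100A13 in 0 vs. ctrl was -0.39 and its exact permutation p 0.0450.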

How the results depend on the processing

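No S100 probe was called in any of the 3 comparisons or over the 3 groups under any alternative, with each count at 0. Of all 38287 probes, the Cy5 channel alone called 8092 in 0 vs. ctrl and 5947 in 6 months vs. ctrl. Leaving out dog 1 before ASIT called 440 in 0 vs. ctrl and 103 in 0 vs. 6 months. Without dog 3 after ASIT, 94 were called in 0 vs. 6 months. With normexp and loess, the Tukey test, or slide or scan day as a random block, each comparison called 0 of all probes. A count of 0 S100 probes in those settings is no result about these genes. The 2 exact tests under 0.05 became 1 after normexp and loess and 1 without dog 2 (settings chosen for these tests after seeing the data), with S100A13 lost at exact permutation p = 0.347 and 0.0596, and 1 to 4 when 1 array was left out, with 4 without dog 6 before ASIT. In the Cy5 channel alone they were 3, all in 6 months vs. ctrl, with exact permutation p = 0.0145 for S100A4, 0.0368 for S100A6 and 0.0430 for S100A11, while S100A13 had 0.0915. How many of all probes pass the exact test in that channel was not computed. For the calgranulins minus the other members, the Cy5 channel alone, in which no pool divides the brightness of different probes, gave medians of 1.72 in ctrl, 1.60 before and 1.70 after ASIT. Small differences, on the log2 scale, changed sign, and for these the cause was not tested. After normexp and loess they were 0.0483 (S100A12, 0 vs. ctrl), -0.123, -0.149, -0.0556 and -0.164 (S100A8, S100A9, S100A12 and S100A4, 6 months vs. ctrl) and 0.196, 0.0381 and 0.104 (S100A8, S100A9 and S100A12, 0 vs. 6 months). In the Cy5 channel alone they were -0.0247, 0.0561, -0.197, -0.0586 and -0.0551 (S100A8, S100A12, S100A4 and the S100P probes, 0 vs. ctrl), -0.0775, -0.248, -0.156 and -0.383 (S100A8, S100A9, S100A12 and S100A4, 6 months vs. ctrl) and 0.0528, 0.0064 and 0.212 (S100A8, S100A9 and S100A12, 0 vs. 6 months). With the slide as a random block S100A8 was -0.0034 and S100A12 0.0038, and with the scan day S100A12 was 0.0596 (0 vs. ctrl). With the slide as a fixed block S100A12 was 0.045, S100A6 -0.0843 and S100A13 -0.109, and in dogs 1 to 3 alone S100A6 was -0.0369 and S100A13 -0.101 (0 vs. 6 months). Without dog 2, S100A8 was -0.091 (0 vs. ctrl), S100A9 -0.0227 and S100A10 0.0459 (6 months vs. ctrl) and S100A11 -0.0839 (0 vs. 6 months). With 1 array left out, 0 vs. ctrl ran from -0.117 to 0.0804 for S100A8, -0.159 to 0.0795 for S100A12 and -0.0027 to 0.182 for S100A4. In 6 months vs. ctrl the range was -0.0298 to 0.138 for S100A9, -0.0568 to 0.0823 for S100A4 and -0.108 to 0.0459 for S100A10, and in 0 vs. 6 months -0.0142 to 0.171 for S100A4 and -0.0381 to 0.0884 for S100A11. The other 301 of 333 differences under the other settings, and 627 of 660 with 1 array left out, kept direction and side of the threshold. With the dog as a replicate block, 0 S100 probes were called in 0 vs. 6 months, and the pairing changed no call. The control arrays share slides and a scan day with no patient array, which no setting can separate from health, and the 95% intervals of the members reached changes of 1.27-fold (S100A11, 0 vs. 6 months) to 1.95-fold (S100A13, 6 months vs. ctrl).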
